A study of Mus musculus with 7 samples.

Results

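An induced pluripotent stem cell (iPSC) line made from lineage-positive bone marrow was compared with embryonic stem cells (ESC) over every probe that either array measured. The members were the probes with a detection p-value under 0.01 on at least 1 of the 2 Illumina mouse bead arrays. They numbered 11260 of 25697 probes, of which 9943 were above background on both arrays, 837 on the LinPos_iPSC array only and 480 on the ESC array only. The line, line 1.1 in the labels and called LinPos_iPSC below, came from the marrow cells that carry surface markers of mature blood lineages. All cells came from OG2 mice, a strain that carries a green fluorescent protein reporter under regulatory sequence of Pou5f1. Both groups were cultured without a stated treatment, the labels give no age, and each group was 1 culture on 1 array. The tissue label reads bone marrow for ESC too, so the groups follow the cell type label.

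With 1 array per group no difference could be tested, and no p-value, standard error or count of significant genes is given. The log2 difference, LinPos_iPSC minus ESC, stands in its place, and "past 2-fold" means a log2 difference of at least 1 in size. The check used here was whether several probes of 1 gene moved alike. A yardstick came from the other 4 pluripotent arrays: iPSC lines 1.1.2, 7 and 9 from lineage-negative marrow (LinNeg_iPSC) and 1 iPSC line from embryonic fibroblasts (MEF_iPSC). The array of lineage-negative marrow itself (LinNeg_BM) served only to show the level of blood genes. Whether the lines derive from different mice is not stated in the labels, and a line made from 1 clone may differ from another line of the same origin.

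Reprogramming replaces the expression program of a blood cell with that of the early embryo, in which Pou5f1, Nanog and Sox2 hold cells pluripotent. Cultures of mouse pluripotent cells are mixed: cells move between a naive state marked by Zfp42 (Rex1) and states closer to the later epiblast, and a small share at any time passes through a state resembling the two-cell embryo, marked by the Zscan4 and Tcstv genes and by Pramel relatives. Emb encodes embigin, a membrane glycoprotein that partners monocarboxylate transporters.

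The promoters of 4 genes that the comparison turns on are shown for reference, each as the 250 bases before the annotated start, from RefSeq and build GRCm38.p6. Zscan4c and Pramel37 represent the two-cell-like genes, Zfp42 the naive state, and Emb the widest difference. Capitals mark matches to 3 motifs searched on both strands: the TATA motif TATAAA, the octamer ATGCAAAT that Pou5f1 family factors bind, and the GC box GGGCGG. No match overlapped another.
Zscan4c (chr7:11005495-11005744, + strand): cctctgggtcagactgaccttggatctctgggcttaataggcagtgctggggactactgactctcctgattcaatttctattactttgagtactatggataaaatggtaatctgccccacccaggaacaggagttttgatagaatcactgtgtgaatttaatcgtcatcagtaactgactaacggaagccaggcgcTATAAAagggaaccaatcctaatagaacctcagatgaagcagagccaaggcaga
Pramel37 (chr5:94070546-94070795, - strand): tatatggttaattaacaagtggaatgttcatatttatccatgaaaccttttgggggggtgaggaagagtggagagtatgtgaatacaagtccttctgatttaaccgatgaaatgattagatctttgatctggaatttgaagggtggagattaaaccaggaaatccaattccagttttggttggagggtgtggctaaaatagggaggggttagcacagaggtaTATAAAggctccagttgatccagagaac
Zfp42 (chr8:43307010-43307259, - strand): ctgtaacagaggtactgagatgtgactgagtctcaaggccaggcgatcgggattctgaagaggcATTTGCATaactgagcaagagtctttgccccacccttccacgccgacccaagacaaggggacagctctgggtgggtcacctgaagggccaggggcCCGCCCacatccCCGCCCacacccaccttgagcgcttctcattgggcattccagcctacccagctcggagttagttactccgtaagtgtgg
Emb (chr13:117220323-117220572, + strand): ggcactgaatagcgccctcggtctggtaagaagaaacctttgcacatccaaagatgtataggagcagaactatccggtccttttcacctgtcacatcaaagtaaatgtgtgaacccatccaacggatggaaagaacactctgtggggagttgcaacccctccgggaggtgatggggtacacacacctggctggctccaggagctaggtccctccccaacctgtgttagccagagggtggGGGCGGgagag

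TATAAA lay at position -54 from the start in the Zscan4c window and at -28 in that of Pramel37. The Zfp42 window held the octamer on the opposite strand at -186, where it reads ATTTGCAT, and a pair of GC boxes also on the opposite strand. The Emb window held 1 GC box at -11. Of 27025 RefSeq promoter windows of this length, 12.97% held TATAAA, 1.61% the octamer and 32.9% the GC box. Among 6383 measured genes with a window the shares were 6.27%, 1.38% and 61.9%. The 204 windows of genes lower past 2-fold held a GC box in 42.2% of cases, TATAAA in 9.80% and the octamer in 3.43%, with a median of 9.5 CpG dinucleotides. The 187 windows of genes higher past 2-fold held them in 64.2%, 10.2% and 1.07%, with a median of 14 CpG. The median over the measured genes was 16 CpG. Motif matches describe the letters only.

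Emb was the probe with the largest difference. Its deposited intensity was 2262 units in LinPos_iPSC and 152 in ESC. After normalization it stood at 11.08 (log2 scale) in LinPos_iPSC, 5.74 in ESC, 7.79, 6.68 and 8.96 in lines 1.1.2, 7 and 9, and 11.78 in MEF_iPSC, so LinPos_iPSC lay 40.6-fold above ESC. ESC was the lowest of the 6 pluripotent arrays, LinPos_iPSC and MEF_iPSC were high, and the 3 lines lay between, with a spread of 7.81 ± 1.14 (SD, n = 3). Emb was also high in LinNeg_BM, at 12.54. It had 1 probe, so no other probe bears on it.

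Zscan4c showed the widest measured difference in the other direction, though not at its bound, with 117 intensity units in LinPos_iPSC, which is not above background there, and 481 in ESC. It stood at 4.82 in LinPos_iPSC, 8.53 in ESC, 8.98, 9.19 and 9.33 in lines 1.1.2, 7 and 9, and 8.57 in MEF_iPSC, at least 7.92-fold lower in LinPos_iPSC than in ESC. The other 5 pluripotent arrays lay within 1 unit of each other and LinPos_iPSC stood alone, near the level of LinNeg_BM (4.63). Zscan4c had 1 member probe, so it lacks the probe check. It belongs to a family of near-identical copies, and the probe may read several of them. In bulk RNA, fewer cells in a state and less RNA per cell cannot be told apart, here or for any gene below.

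Zfp42, a zinc finger gene of the naive state, had 913 intensity units in LinPos_iPSC and 5389 in ESC. Its levels were 9.73 in LinPos_iPSC, 12.22 in ESC, 12.25, 12.10 and 12.21 in lines 1.1.2, 7 and 9, and 11.60 in MEF_iPSC, a 5.63-fold lower level in LinPos_iPSC than in ESC. LinPos_iPSC lay 1.87 below the lowest of the other 4 arrays, against a spread between the 3 lines of 0.08 (SD, n = 3). Zfp42 remained far above its level in LinNeg_BM, 5.30. It had 1 member probe, so no other probe bears on it.

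Most probes differed little. The median absolute difference was 0.26, 90% of probes lay within 0.84 and 99% within 1.69, and the median signed difference was 0.01. Past 2-fold were 328 probes higher in LinPos_iPSC (2.91%) and 361 lower (3.21%), 6.12% in either direction. At 4-fold the split was 18 higher and 41 lower. Of these probes past 2-fold, 20 higher and 22 lower have no gene symbol in the platform annotation.

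Dim probes carried much of that count. With the members ranked by mean level into 4 equal groups of 2815, 11.01% of the dimmest group were past 2-fold, against 7.07%, 4.44% and 1.95% in the next 3. Of the higher probes 110 were not above background in ESC, and of the lower ones 169 were not above background in LinPos_iPSC. For those probes a difference is a bound, and with dim values raised to the lowest level above background on that array (5.67 in ESC, 5.54 in LinPos_iPSC) 237 higher and 252 lower probes were still past 2-fold. At the detection threshold, 480 probes just inside (best detection p-value between 0.005 and 0.01) had a median absolute difference of 0.36 with 14 past 2-fold, and 727 just outside (0.01 to 0.02) had 0.40 with 15.

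The same count was made for each pair of pluripotent arrays, with members chosen for each pair in the same way. Between lines of lineage-negative origin 137 to 218 probes were past 2-fold (1.20% to 1.92%). ESC differed past 2-fold from lines 1.1.2, 7 and 9 in 254, 470 and 502 probes (2.29%, 4.17% and 4.48%) and from MEF_iPSC in 595 (5.33%). LinPos_iPSC differed in 621, 708 and 665 probes from the 3 lines (5.46%, 6.16% and 5.81%) and in 955 from MEF_iPSC (8.35%). LinPos_iPSC against ESC, at 6.12%, thus exceeded each of the 3 pairs within LinNeg_iPSC and each other pair with ESC, and lay within the range of the other pairs with LinPos_iPSC. These pairs share arrays and are not independent.

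To see which array carried a difference, LinPos_iPSC and ESC were each set against the range of the other 4 pluripotent arrays. Of the 328 higher probes LinPos_iPSC alone lay outside that range in 111 (33.8%), ESC alone in 53 (16.2%), both in 153 (46.6%) and neither in 11. Of the 361 lower probes the numbers were 126 (34.9%), 49 (13.6%), 175 (48.5%) and 11. Over all members LinPos_iPSC alone was outside in 25.2%, ESC alone in 18.4%, both in 27.9% and neither in 28.5%. A gap of at least 2-fold beyond the range was found for LinPos_iPSC in 36 higher and 76 lower probes, and for ESC in 10 and 12.

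Agreement between probes was examined in the 2057 genes with 2 or more member probes, out of 7778 measured genes. Across these genes the difference of the brightest probe and that of the next correlated with Pearson r = 0.58, and r = 0.74 for the 833 genes whose next probe had a mean level of at least 8. Both values describe genes within 1 pair of arrays, and genes are not independent replicates. Of 76 genes with a probe past 2-fold higher, all member probes were past 2-fold in 19 (0.924% of the 2057), 46 agreed in sign without all reaching 2-fold, and 11 had a probe of opposite sign. Of 87 genes with a probe past 2-fold lower, the numbers were 20 (0.972%), 50 and 17. The least-moved probe of these genes had a median difference of 0.65 in the higher and 0.59 in the lower direction. In both directions some genes counted as agreeing had a probe dim on 1 array that was under 2-fold at its bound. With members limited to probes above background on both arrays, 8 genes had all probes past 2-fold lower.

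In no gene did probes pass 2-fold in opposite directions. Some genes were nevertheless left undecided by their probes, named here after their values were seen. Tdgf1, the Nodal co-receptor Cripto, had 1 probe at 6.81 in LinPos_iPSC and 6.36 in ESC and another at 4.76 and 7.55, at least 4.01-fold lower. Casp9, the initiator caspase of the mitochondrial death pathway, had differences of 0.89 and -3.34. Mff, a mitochondrial fission factor, had 0.21 and -2.54, and the ribosomal protein gene Rps3 0.25 and -1.14. The lower Casp9 and Mff probes were dim in LinPos_iPSC, at least 6.73-fold and 3.53-fold lower. No direction is given for these genes. The 5721 genes with 1 member probe have no such check.

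Among genes whose probes agreed in the higher direction, the widest were 2 transport genes. Slc4a3, an anion exchanger, had 3 probes higher by 1.61, 1.89 and 2.01, and its brightest stood at 10.33 in LinPos_iPSC, 8.44 in ESC, 9.42, 9.15 and 9.61 in lines 1.1.2, 7 and 9, and 9.34 in MEF_iPSC. ESC was the lowest and LinPos_iPSC the highest, with the other 4 between. Ap1m2, the epithelial-specific subunit of the clathrin adaptor AP-1, had 4 probes higher by 1.60 to 1.96, with the brightest at 8.96 in LinPos_iPSC, 7.07 in ESC, 7.41, 7.98 and 8.75 in the lines and 7.39 in MEF_iPSC. Line 9 nearly reached LinPos_iPSC.

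Igfbp4, a secreted binding protein of insulin-like growth factors, and Irf2bpl separated LinPos_iPSC from all other pluripotent arrays. Igfbp4 stood at 9.84 in LinPos_iPSC, 8.41 in ESC, 8.47, 8.49 and 8.57 in the lines and 8.29 in MEF_iPSC, and its 2 probes gave 1.43 and 1.42. In LinNeg_BM these probes were higher still, at 11.11 and 11.34. LinPos_iPSC lay 1.27 above the highest other pluripotent array, where the SD over the lines was 0.05 (n = 3). Irf2bpl was higher by 1.13 (12.39 against 11.26) and 1.16 on its 2 probes.

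The remaining agreeing genes included Fgf10, a fibroblast growth factor (1.48 on the brighter probe, and at least 2.94-fold on the other), Cxadr, the coxsackievirus and adenovirus receptor of cell junctions (1.20 and 1.72), and Irf9, an interferon regulatory factor (1.37, and at least 1.44-fold). Id2 was 2.83-fold higher, with its dimmer probe at least 1.85-fold, and Cbs, which makes cystathionine, was higher by 1.06 and 1.38. Lrrfip1 was 2.08-fold higher on its brighter probe and at least 1.06-fold on the other. Lims2 was higher by at least 1.67-fold and 1.41-fold, so its 2-fold difference on both probes, and that of the dimmer Lrrfip1 probe, rests on values below background in ESC. Dcxr, a carbonyl reductase, was higher by 1.14 and 1.12, but at 9.37, 9.23 and 9.41 the 3 lines matched LinPos_iPSC (9.38), and ESC (8.24) and MEF_iPSC (7.46) were low.

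In the lower direction Wdr46, a nucleolar protein, had the clearest agreement. It stood at 5.83 in LinPos_iPSC, 7.88 in ESC, 8.09, 7.76 and 7.78 in lines 1.1.2, 7 and 9, and 8.18 in MEF_iPSC, a 4.14-fold lower level than in ESC, and its other probe was at least 4.36-fold lower. LinPos_iPSC lay 1.93 below the lowest of the other 4 arrays. The BCL6 corepressor gene Bcor had differences of -1.29 and -1.35 on its 2 probes, with LinPos_iPSC at 6.77 and the other 5 arrays between 7.83 and 8.06. Bmerb1 had differences of -1.49 and -2.16, and Glipr2 of -1.27 on its brighter probe, with the other at least 2.4-fold lower. Etv1 was dim in LinPos_iPSC, at least 2.69-fold and 1.91-fold lower, and so was Cd6, at least 1.61-fold and 1.35-fold lower. Gm3696 was not above background in LinPos_iPSC, at least 3.56-fold and 1.86-fold lower on its 2 probes, and Mical1, a redox enzyme acting on actin, was 2.30-fold lower on its brightest of 3 probes. The other Mical1 probes were dim in LinPos_iPSC, at least 2.51-fold and 1.57-fold lower.

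For other agreeing genes ESC was high against the other arrays as well. Liph, a phospholipase, stood at 8.73 in LinPos_iPSC, 10.42 in ESC, 9.97, 9.31 and 8.93 in the lines and 9.50 in MEF_iPSC, with probe differences of -1.69 and -1.63. The ETS-family gene Spic stood at 5.66 in LinPos_iPSC, 8.11 in ESC, 6.34, 6.91 and 7.05 in the lines and 7.00 in MEF_iPSC, so that ESC lay above and LinPos_iPSC below the other 4. The dimmer Spic probe was not above background in LinPos_iPSC and at least 1.49-fold lower. Tuba3a, an alpha-tubulin gene with close relatives that a probe could also read, had 4 probes with differences from -1.16 to -2.18, but line 9 (7.44 on the brightest probe) lay below LinPos_iPSC (8.30). Timm8a2 was at background in LinPos_iPSC and highest in ESC (6.59), 1.16 above the highest of the other 4 arrays. Its probes were at least 2.07-fold and 1.90-fold lower in LinPos_iPSC than in ESC.

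Genes with a single probe gave the widest differences but lack the probe check. Ipp, a kelch-repeat protein, stood at 11.24 in LinPos_iPSC, 7.05 in ESC, 8.20, 7.23 and 9.21 in lines 1.1.2, 7 and 9, and 8.86 in MEF_iPSC, 18.3-fold above ESC. Tgm2, tissue transglutaminase, which crosslinks proteins, stood at 10.94 in LinPos_iPSC, 7.99 in ESC, 8.10, 7.37 and 7.00 in the lines and 7.54 in MEF_iPSC, 7.68-fold above ESC and 2.84 above the highest of the other 4. ESC lay within the other arrays for Tgm2 and below them for Ipp. Gng13, a G-protein gamma subunit, was at least 6.68-fold higher, the X-linked Xlr4a, one of a family of similar copies, at least 6.40-fold, B3galt6 of proteoglycan synthesis at least 4.73-fold, and Sfn, the 14-3-3 sigma protein, 5.69-fold.

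The widest single-probe genes in the lower direction mostly set LinPos_iPSC alone apart. Trim59, a ubiquitin ligase of the tripartite motif family, was not above background in LinPos_iPSC (5.10), and stood at 8.63 in ESC, 8.49, 8.72 and 8.74 in the lines and 8.85 in MEF_iPSC, at least 8.48-fold lower. Csrp1, a LIM-domain protein of the actin cytoskeleton, was not above background either (4.83), against 8.11 in ESC, 8.06 ± 0.02 (SD, n = 3) in the lines and 8.38 in MEF_iPSC, at least 5.94-fold lower. Pdzk1, a scaffold of membrane transporters, was 9.46-fold lower (5.69 against 8.94), and the lipase-like Abhd16a at least 4.83-fold lower.

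A few of these genes were low in MEF_iPSC as well. 2210409E12Rik stood at 6.30 in LinPos_iPSC and 6.54 in MEF_iPSC, against 9.79 in ESC and 9.94, 9.37 and 9.20 in the lines, 11.2-fold below ESC. Apoa2, an apolipoprotein of high-density lipoprotein, was below background in LinPos_iPSC (4.71), at 5.44 in MEF_iPSC, 7.70 in ESC and 8.22 to 8.32 in the lines, at least 4.46-fold lower than in ESC. Anxa4, a calcium-dependent phospholipid-binding annexin, was at least 6.13-fold lower, with MEF_iPSC at 6.53 and ESC at 8.16.

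Gene lists were then read by their members. Over all 7778 genes, each by its brightest member probe, 246 were past 2-fold higher (3.16%) and 262 lower (3.37%), with a median of 0.01. Of 30 listed naive pluripotency genes 27 were measured. Of these 1 was past 2-fold higher and 4 lower, and the median was 0.10. Pou5f1 stood at 13.06 in LinPos_iPSC, 12.95 in ESC, 12.95, 12.87 and 12.83 in the lines and 12.56 in MEF_iPSC, and Nanog at 12.77, 12.69, 12.66, 12.42, 12.57 and 12.07 in the same order. Both genes were thus within 0.11 of ESC, and the second Pou5f1 probe differed by 0.07. Dppa5a, another gene of pluripotent cells, differed by -0.08 on its listed probe and by 0.10 on the other.

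The reprogramming factor genes Sox2 and Klf4 were less even. The brighter Sox2 probe stood at 10.93 in LinPos_iPSC and 9.97 in ESC, with the other 4 arrays between 9.77 and 10.08, while the second probe stood at 9.59 on both. Klf4 had 3 probes higher by 0.49, 0.61 and 0.68, and its brightest was 0.60 above the highest of the other 4 arrays. Neither gene passed 2-fold, and neither Myc probe was above background on either array.

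The 4 naive genes past 2-fold lower included Zfp42 and 3 others. Nr5a2, an orphan nuclear receptor that can drive Pou5f1, stood at 7.23 in LinPos_iPSC, 8.74 in ESC, 8.55, 8.58 and 8.88 in the lines and 8.35 in MEF_iPSC. LinPos_iPSC was alone low, and the second, dimmer probe differed by -0.59. Dppa3 (Stella), which protects maternal methylation in the zygote, stood at 8.49 in LinPos_iPSC, 9.75 in ESC, 9.81, 9.72 and 10.09 in the lines and 10.22 in MEF_iPSC, again low in LinPos_iPSC alone. Rif1 of replication timing was not above background in LinPos_iPSC and at least 1.58-fold lower, so its count as past 2-fold rests on a dim value. The 1 naive gene past 2-fold higher by its brightest probe was Il6st, the signalling receptor gp130 of leukemia inhibitory factor (7.24 against 6.19). Il6st had 1 member probe. Sall4 differed by 0.31 on its brightest probe and by up to 1.05 on another. Lifr differed by -0.09 on its brighter probe and by -1.01 on the other. Of the others Tbx3 differed by 0.85, Lin28a by 0.62, Klf5 by 0.57, Esrrb by 0.47 and Utf1 by -0.37.

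Most of the two-cell-like genes measured were lower. Of 37 listed, 25 had a probe and 7 were measured, of which 5 were past 2-fold lower and 0 higher, with a median of -1.52 and of -1.18 with dim values at their bound. The genes above background numbered 7 in ESC, 7, 8 and 7 in lines 1.1.2, 7 and 9, 7 in MEF_iPSC and 1 in LinPos_iPSC, as in LinNeg_BM. Since 6 of the 7 entered through ESC alone, the detection filter left them little room to be other than lower, and the count of dim genes is a description. Tcstv3 stood at 4.59 in LinPos_iPSC and between 6.97 and 7.38 on the other 5 arrays, at least 2.87-fold lower than in ESC.

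Other members of that list followed, with LinPos_iPSC below the other 5 arrays for Tcstv1, Pramel37 and Tmem92. Tcstv1 was at least 2.37-fold lower, with LinPos_iPSC at 5.27 and the others between 6.59 and 7.13. Pramel37 was at least 2.26-fold lower (4.69 against 6.72), and its second probe at least 1.22-fold. Tmem92 was below background in LinPos_iPSC and at least 1.16-fold lower, so its place among the 5 genes past 2-fold rests on that dim value. Pramel13, and Gm5662 on its brighter probe, did not share this order. That Gm5662 probe was below background in LinPos_iPSC (5.39, at least 1.11-fold below ESC), and lines 1.1.2, 7 and 9 were lower still, at 4.88, 4.83 and 5.17. The second Gm5662 probe had a measured difference of -1.27, so the 2 probes shared a sign but not a size. Pramel13, the only member above background in LinPos_iPSC, stood at 9.12 against 8.94. Several of these genes have close copies, so a probe may read more than 1. AF067061, which lies 2 coding genes from Tcstv3 on chromosome 13 in the gene order of GRCm38.p6, was below background in LinPos_iPSC and differed by -1.64 at its bound.

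Genes of primed and early lineage states were few: 6 of 22 were measured, with a median of 0.63. Otx2, a homeobox gene of the epiblast and forebrain, stood at 10.02 in LinPos_iPSC, 8.81 in ESC, 8.69, 10.46 and 10.05 in lines 1.1.2, 7 and 9, and 9.99 in MEF_iPSC, so ESC and line 1.1.2 were low and LinPos_iPSC lay among the rest. Pou3f1 (Oct6) was 1.26 higher than in ESC, at 7.07 beside 7.00, 6.84 and 6.29 in the lines. Zic2, a zinc finger gene of the primed epiblast, was below background in LinPos_iPSC and at least 2.62-fold lower.

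Signalling genes of the Nodal, BMP and FGF pathways had 19 of 25 measured, with 4 past 2-fold higher, 0 lower and a median of 0.13. Tdgf1 counts here and in the naive list by its brighter probe (0.45), though its other probe was at least 4.01-fold lower. Among the ligands and secreted antagonists, Lefty2, which blocks Nodal, stood at 12.23 in LinPos_iPSC, 9.93 in ESC, 10.81, 10.67 and 11.31 in the lines and 10.47 in MEF_iPSC, 4.96-fold above ESC and 0.92 above the highest of the others. Its relative Lefty1 had a difference of -0.64, and Nodal itself of -0.07. Bmp4 stood at 8.62 in LinPos_iPSC, 6.71 in ESC, 7.39, 8.03 and 7.81 in the lines and 8.42 in MEF_iPSC, and ESC was the lowest.

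Receptors and transducers differed less, with Bmpr1a at 0.61, Acvr2b at -0.26, Smad2 at 0.35 and Smad3 at -0.80. Among target genes of BMP signalling, Id2 stood at 9.02 in LinPos_iPSC, 7.52 in ESC, 8.21, 8.35 and 8.60 in the lines and 7.11 in MEF_iPSC. Id1 was 1.27 higher than in ESC (9.40 against 8.12), level with the lines at 9.18, 9.39 and 9.47, while Id3 differed by -0.21. The FGF targets Spry4 (0.85), Dusp6 (-0.03), Etv4 (-0.57) and Etv5 (-0.58) lay on both sides of 0.

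Immediate early genes, the transcription factors and phosphatases that respond within minutes to growth factors or handling, had the highest median, 0.77, of the lists with more than 1 measured gene, with 11 of 13 measured genes above 0 and 3 past 2-fold. Atf3 stood at 8.03 in LinPos_iPSC, 6.17 in ESC, 7.27, 7.06 and 7.17 in the lines and 6.72 in MEF_iPSC, the highest and the lowest of the 6 being LinPos_iPSC and ESC. Egr2 was higher by 1.10, Jund by 1.01, Junb by 0.90, Fosb by 0.89 and Fos by 0.84. The lines also lay above ESC in this list, with medians of 0.58, 0.63 and 0.58, and MEF_iPSC with 0.35. Each of these medians uses the same ESC array.

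The amino acid stress list had 20 of 22 genes measured, a median of 0.16, 3 past 2-fold higher and 1 lower. The 1 lower gene was Atf4 itself, the transcription factor that the list is named for: it stood at 8.46 in LinPos_iPSC, 10.56 in ESC, 10.27, 10.43 and 10.13 in the lines and 7.03 in MEF_iPSC. LinPos_iPSC and MEF_iPSC were low and the other 4 within 1 unit. Atf4 had 1 member probe, so no other probe bears on it. The 3 higher genes were Atf3, Ddit3 (CHOP), by 1.26 with its second probe at 0.69, and Chac1, a glutathione-degrading enzyme, by 1.03. Asns, Psat1 and Trib3, commonly read as Atf4 targets, differed by -0.16, -0.07 and 0.41. Over the 20 measured genes 13 lay above 0 and 7 below, the lower ones including Phgdh (-0.56), Slc7a3 (-0.55) and Cth (-0.43). Whether these differences follow that of Atf4 was not tested. Tomm22 of the mitochondrial import pore lies 16 coding genes from Atf4 on chromosome 15 and differed by -2.17, and it too was low in MEF_iPSC (7.59).

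Of 17 listed epithelial junction genes 12 were measured, with 2 past 2-fold higher, 0 lower and a median of 0.44, or 0.12 with dim values at their bound. Beside Ap1m2 the claudin Cldn6 was 1.31 higher than in ESC (8.69), where the lines stood at 9.80, 10.32 and 10.73 and MEF_iPSC at 9.91, so ESC alone was low. E-cadherin (Cdh1) differed by 0.22, Cldn4 by 0.89 and Pkp2 by -0.49. The other 4 arrays had list medians of 0.36, 0.78, 0.96 and 0.70 above ESC.

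Extraembryonic endoderm genes, which mark differentiation toward yolk sac tissue, had 11 of 24 measured, 2 past 2-fold higher, 1 lower and a median of 0.28. Lama1, a basement membrane laminin, was higher by 1.42 and Amn, amnionless, by 1.36, while Dab2, an endocytic adaptor, was lower on both of its probes, at -1.15 and -1.13. Dab2 stood at 7.15 in LinPos_iPSC, 8.30 in ESC, 10.17, 8.54 and 9.95 in the lines and 6.92 in MEF_iPSC. The lineage factor Gata6 stood at 7.19 on both arrays, and Gata4 and Sox17 were above background on neither array. The log2 levels of the 11 genes summed to 95.6 in LinPos_iPSC and 91.8 in ESC, and the part of such cells in any other difference was not tested.

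Fibroblast or feeder genes had 16 of 24 measured, none past 2-fold in either direction and a median of 0.11, beside 0.47, 0.99 and 0.55 in the lines and 0.48 in MEF_iPSC. Col1a1 differed by 0.12, Vim by 0.13, Thy1 by -0.12 and Timp1, the member farthest from 0, by 0.99. The collagen genes Col1a2 and Col3a1 and Postn were above background on neither array. The log2 levels of the 16 genes summed to 132.4 in LinPos_iPSC and 130.9 in ESC. The labels do not say whether feeder cells were used.

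Markers of blood cells were mostly below background in LinPos_iPSC and in ESC. Ptprc (CD45) of leukocytes, Mpo of neutrophil granules and the alpha globin gene Hba-a1 were above background on neither array. Of the 18 pan-leukocyte genes with a probe, 17 were above background in LinNeg_BM and 5 in each of LinPos_iPSC and ESC. Of 18 granulocyte-monocyte genes the numbers were 17, 1 and 0, the 1 being the granule protease Prtn3 (5.84, at least 1.13-fold above ESC, against 14.32 in LinNeg_BM). Hematopoietic stem and progenitor genes had 13, 3 and 3 of 17, erythroid-megakaryocyte-mast genes 14, 1 and 1 of 15, and lymphoid genes 11, 1 and 6 of 17.

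Past 2-fold were 2 of 5 pan-leukocyte genes measured, 1 of 3 stem and progenitor genes, 1 of 2 erythroid-megakaryocyte-mast genes, 0 of 1 granulocyte-monocyte gene and 0 of 6 lymphoid genes, beside the 3.16% higher and 3.37% lower over all genes. Gata2, a stem and progenitor transcription factor, stood at 7.09 in LinPos_iPSC, 5.99 in ESC, 5.28, 5.61 and 4.91 in the lines, 6.22 in MEF_iPSC and 11.33 in LinNeg_BM, so LinPos_iPSC was the highest of the pluripotent arrays. Laptm5, a lysosomal protein, stood at 13.48 in LinPos_iPSC and 12.26 in ESC, with LinNeg_BM at 14.55 and the other 4 arrays between 11.53 and 12.77. Was, the Wiskott-Aldrich protein of blood cell actin, went the other way, at 6.11 against 7.70. The carbonic anhydrase gene Car2 was below background in LinPos_iPSC and at least 5.21-fold lower. The 6 lymphoid genes were all below 0 with a median of -0.50, or -0.26 at their bound, and 5 of them were above background in ESC only. The pan-leukocyte median was 0.22 over 5 genes, whose log2 levels summed to 42.3 in both, with Laptm5 and Was differing in opposite directions.

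Germline genes had 10 of 22 measured, 0 past 2-fold higher, 2 lower and a median of -0.50, or -0.31 with dim values at their bound. Rhox5, an X-linked homeobox gene, stood at 8.81 in LinPos_iPSC, 10.12 in ESC, 11.59, 9.74 and 10.29 in the lines and 11.75 in MEF_iPSC, lowest in LinPos_iPSC. Tex11, a meiotic gene also on the X chromosome, differed by -1.02, Tdrd12 by -0.97 and Tex19.1 by -0.50, while Piwil2 differed by 0.65 and Ddx4 by 0.68 from below background in ESC.

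Imprinted genes had 13 of 26 measured and a median of -0.06. Nnat, neuronatin, was at least 1.31-fold higher, and the next in size were Impact (-0.61), Mest (-0.46) and Snrpn (-0.46). The 3 probes of Mest ran from -0.73 to 0.41 and so disagreed in sign. Dlk1 differed by 0.20 and Igf2 by 0.22. The DNA methylation and polycomb list had 13 of 20 measured, none past 2-fold, and a median of -0.03. Dnmt3b, a de novo DNA methyltransferase, stood at 11.14 in LinPos_iPSC, 11.78 in ESC, 12.31, 12.44 and 12.33 in the lines and 12.79 in MEF_iPSC, and both LinPos_iPSC and ESC lay below the other 4. The polycomb gene Suz12 differed by -0.69 and Dnmt3l by 0.18.

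Proliferation and metabolism lists lay close to 0, with each gene read by its brightest member probe. Cell cycle genes (14 of 20 measured) had a median of -0.06 and none past 2-fold, with Ccnd3 at 0.58 and Ccnd1 at -0.33 the farthest out. Genes of p53 and cell-cycle inhibition (15 of 20) had a median of 0.17, none past 2-fold, and Cdkn1a at 0.27. Glycolysis and hypoxia genes (18 of 28) had a median of 0.08, from Pdk1 at -0.64 to Vegfa at 0.68, again with none past 2-fold. The second Vegfa probe was past 2-fold, at 1.15, and a dimmer Tpi1 probe differed by -0.96. Interferon and MHC class I genes (8 of 22) had a median of -0.02 and none past 2-fold, with B2m at 0.58. Housekeeping genes (7 of 10) had a median of 0.11, between -0.27 for Hprt and 0.34 for Gusb. Dimmer probes reached -0.78 for Actb and -0.69 for Ywhaz, and the probes of Actb and of Hprt disagreed in sign.

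Single genes stood out in 2 such lists. Msmo1, a sterol methyl oxidase, was the 1 of 17 measured cholesterol synthesis genes past 2-fold, at 8.09 in LinPos_iPSC, 9.57 in ESC, 9.75, 10.33 and 10.66 in the lines and 11.34 in MEF_iPSC, where the list median was 0.25. Bag3, a co-chaperone of Hsp70, was the 1 of 12 heat shock genes past 2-fold, at 10.06 in LinPos_iPSC and between 10.81 and 11.31 on the other 5 arrays, with a list median of -0.07. Of the sex-linked genes, the Y-linked Eif2s3y was above background in LinPos_iPSC (5.72) and not in ESC (4.43) or in the 3 lines, against 7.73 in MEF_iPSC, at least 1.04-fold above ESC. Kdm5d and Uty of the Y chromosome and Xist of the X chromosome were below background on both arrays.

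Along the chromosomes 1 region stood out. Running medians of 25 neighbouring measured genes, in the gene order of GRCm38.p6, passed 0.5 in 105 of 7291 windows, all 105 of them on chromosome 14, with a highest value of 1.01. On the other chromosomes they lay between -0.46 (chromosome 3) and 0.49 (chromosome 15). The stretch that those windows cover ran from Capn7 to Cdca2 and was chosen after its values were seen. It held 131 of the 261 measured genes of the chromosome, with a median of 0.66, 106 of them above 0, 39 past 2-fold higher and 3 lower. The remaining 130 genes of chromosome 14 had a median of 0.01, and the window size blurs both edges.

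Against the same ESC array, the stretch had a median of 0.70 in line 7, 0.70 in line 9 and 0.70 in MEF_iPSC, and of 0.03 in line 1.1.2. ESC was the lowest of the 6 arrays in 57 of its genes, line 1.1.2 in 38 and LinPos_iPSC in 8. ESC and line 1.1.2 thus lay low together and the other 4 high. The 39 genes make up 15.9% of the 246 genes past 2-fold higher and 29.8% of the stretch, where 3.16% of all genes were past 2-fold higher. Among the 112 genes above background on both arrays the median was 0.75.

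Irf9, Otx2, Bmp4 and Bmpr1a, named above, lie in that stretch. Its genes farthest from ESC were Tgm1, a transglutaminase of the epidermis (2.02), Bmp4 (1.91), the lectin gene Lgals3 (1.70), the tetraspanin gene Tspan14 (1.67) and Rec8, a meiotic cohesin subunit (1.66). Rec8 stood at 8.69 in LinPos_iPSC, 7.03 in ESC, 6.95, 8.21 and 8.54 in lines 1.1.2, 7 and 9, and 7.96 in MEF_iPSC, in the order of the stretch as a whole. Parp2 of DNA repair, also in the stretch, stood at 11.31 in LinPos_iPSC and 9.98 in ESC on its brighter probe, while its other probe differed by -0.41. Dad1, Mrpl52 and Mipep differed by 1.12, 1.31 and 1.35. The 3 genes past 2-fold lower were Haus4 (dim in LinPos_iPSC, at least 1.86-fold lower), Dlgap5 and Psmb5, at -1.28, -1.11 and -1.05, and all 3 were low in MEF_iPSC where lines 7 and 9 were near ESC for Haus4 and Dlgap5.

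No other chromosome had a median beyond 0.09 in size in LinPos_iPSC against ESC. Chromosome 8, which carries Zfp42, Msmo1 and Jund, had a median of 0.03, where lines 1.1.2, 7 and 9 had 0.08, 0.24 and 0.33 and MEF_iPSC 0.40. Of 44 genes past 4-fold by measured difference, values below background included, 5 pairs lay within 20 coding genes of each other. No such count was made over all genes, so this one is a description only. In 1 such pair B3galt6, dim in ESC, was at least 4.73-fold higher and the adjacent C1qtnf12 was higher by 2.25 (log2). AF067061 and Tcstv3, Atf4 and Tomm22, and Ccng2 and Pramel37 were lower together. Casp9 and Tmem82 differed in opposite directions, by -3.34 and 2.05, and the probes of Casp9 disagreed.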

How the data were processed

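Total RNA was amplified and biotin-labelled per the labels' protocols and hybridised to Illumina mouse bead arrays, 1 per sample. The deposited table holds, for 25697 probes and 7 arrays, a bead-summarised intensity. Judged by its values this intensity still contains background and was not brought to a common scale, with array medians from 103.0 to 134.9. A detection p-value for each probe and array is deposited beside it. A second deposited table holds the authors' log2 values, with the same distribution on every array, and was used only as an alternative. The submitters' processing notes name BeadStudio 3.2, RMA and lumi without role or order. How the authors handled background is not stated in any of these sources. No value column was left unused (0).

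Intensities were background-corrected from the controls inferred from the detection p-values, quantile-normalized over the 7 arrays and taken to log2 (limma 3.58.1 neqc, offset 16, R 4.3.3). This was tested on simulated data, with known differences put only on probes well above background in a copy of the ESC array. The simulation therefore does not cover dim probes. Above background means a detection p-value under 0.01. The member probe with the highest mean of the 2 arrays stood for its gene. For a dim side, a fold printed as "at least" is a bound: the brighter level over the higher of the dim value and the lowest level above background on that array. Log2 differences and counts past 2-fold use the values as measured unless said to be at a bound. Gene symbols come from the platform annotation (23978 probes with 1 symbol, 1719 with none, 23962 matched to GRCm38.p6), and promoters from RefSeq. Between 10423 and 10780 probes were above background on the 2 compared arrays, and the number of arrays limits the precision.

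Genes chosen for naming were, in each direction, the 12 genes whose 2 or more probes all passed 2-fold, ranked by their smallest difference. The 8 widest genes with 1 probe in each direction, up to 4 members of each of 25 gene lists and a fixed set were also chosen. Not every gene so chosen is described above. The members, the lists and the rule were chosen with earlier results of these data known. Further members of lists and genes of the chromosome 14 stretch were named after their values were seen. Alternatives were other background corrections, normalizations, detection filters, fold thresholds and probe summaries.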

Additional observations from a re-analysis of the deposited data

How the results depend on the processing

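The direction of every named gene past 2-fold was kept under the 9 alternatives of processing that were run, but counts and list medians moved with the background correction. Of 72 such genes 71 or 72 stayed past 2-fold with 2 arrays only, cyclic loess, median scaling, the mean over probes, the authors' values or a detection p-value of 0.05, and 51 of the 51 that remained with both arrays above background. With normexp 49 stayed and with no background correction 43.

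Probes higher and lower, and genes with agreeing probes higher and lower, numbered 328, 361, 19 and 20. They became 107, 127, 3 and 4 with normexp and an offset of 50, 80, 86, 3 and 3 with no background correction, and 685, 617, 34 and 33 with the authors' values. They became 218 and 192 probes, with 8 genes lower, when both arrays had to be above background. At 1.5-fold they were 1228, 1079, 80 and 75, and at 3-fold 49, 95, 2 and 3.

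The two-cell-like median (-1.52) was -0.95 with normexp, -0.63 with no background correction, -3.22 with the authors' values and -1.40 with the mean over probes, and turned to 0.18 with both arrays above background, where 1 gene, Pramel13, was left. The primed median (0.63) was 0.45, 0.39, 0.60, 0.75, 0.30 and 0.92 with normexp, no correction, median scaling, the authors' values, a detection p-value of 0.05 and both arrays. The immediate early median (0.77) was 0.61 with normexp, 0.50 with no correction, 0.82 with cyclic loess, 0.80 with 2 arrays only and 0.64 with a detection p-value of 0.05. The germline median (-0.50) was -0.33 and -0.25 with normexp and no correction, and the lymphoid median (-0.50) -0.25 and -0.18, -0.76 with the authors' values and -0.27 with both arrays. Cholesterol synthesis (0.25) had 0.21 with normexp, 0.20 with no correction and 0.21 with median scaling. Median scaling gave -0.10 for DNA methylation and polycomb, -0.13 for cell cycle and -0.14 for heat shock. DNA methylation and polycomb also had -0.19 with a detection p-value of 0.05 and -0.072 with the mean over probes. Interferon genes had 0.14 both with a detection p-value of 0.05 and with both arrays above background, and housekeeping genes -0.06 with the mean over probes. The cause of these moves was not tested.

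The chromosome 14 stretch kept its sign in the 8 alternatives, from 0.41 with no background correction to 0.81 with the authors' values, an alternative set chosen after seeing the data. Leaving out each LinNeg_iPSC line in turn gave 84 to 107 higher and 95 to 116 lower probes with LinPos_iPSC alone outside the others, and 45 to 50 and 42 to 49 with ESC alone. With a line left out the range can only narrow, so a probe leaves these counts only when both compared arrays lie outside. The counts with both outside are not given here. No paired analysis was possible because each compared group had 1 array. Among the probes past 2-fold, 110 higher and 169 lower had only a bound, being dim on 1 array.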
